A study of Mus musculus with 28 samples.

Results

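Untreated Th17n cells that lack JMJD3 were compared with untreated wild-type Th17n cells, gene by gene. Members were chosen by culture label alone, and they were 7 of the 28 RNA-seq libraries of the series: 3 knockout (KO) and 4 wild-type (WT) libraries of the Th17n ctrl culture. Th17n stands for non-pathogenic T helper 17 cells, and ctrl for cultures without DFMO, an inhibitor of the polyamine enzyme ornithine decarboxylase. The other 21 libraries were Th17n cells with 100 µM DFMO and induced regulatory T (iTreg) cells with and without it, from the same 7 animals. They shared the model with the 7, and so its filter, scaling and estimate of spread. Their levels entered only where the KO effect was set against that of another culture.

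All animals are labelled C57BL/6. The WT libraries came from animals WT1 to WT4, and the KO libraries from 3 JMJD3fl/flCD4cre animals, in which Cre under the CD4 promoter deletes floxed Kdm6b in the T cell lineage. Cd4-driven Cre acts in the thymus, so the cells had developed without the intact gene before they were cultured. All 7 libraries share the rest of the protocol. Sorted naive CD4 cells from spleen were activated by plate-bound antibodies to CD3 and CD28 at 1 µg/ml, kept with 25 ng/ml IL-6 and 2 ng/ml TGF-beta 1, harvested at 68 h and sorted as live cells. The age, the sex and any library batch were not given in the sources used here. Within this comparison the labels name another animal for each library. The model takes the 28 libraries of the 7 animals as independent and has no term for the animal. Its p-values therefore may not cover the whole spread between animals.

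JMJD3 is the protein of Kdm6b. It is a JmjC dioxygenase that takes methyl groups off lysine 27 of histone H3, the mark that Polycomb repressive complex 2 writes and that goes with silent genes, so it is best known as a factor that lets silenced genes be switched on. Its close relative UTX (Kdm6a) removes the same mark. In T cells JMJD3 is known as a regulator of helper cell differentiation, including that of Th17 cells, which make IL-17A and IL-17F.

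Total estimated counts were 4561014 to 4759290 in the WT libraries, and 2226914, 2607299 and 4143568 in KO replicates 1, 2 and 3, so every KO library was shallower than every WT library. Mitochondrial genes took 0.682% to 1.43% of the counts in WT and 0.569% to 0.942% in KO. The first principal component of the 7 libraries held 30.0% of the variance and had the WT libraries at -21.7 to -9.88 and the KO libraries at 12.5 to 29.6. The T cell markers summed to 3382 to 3818 counts per 1000000 (CPM) in WT and 3776 to 4046 in KO. Markers of B cells summed to 4.58 to 9.09 CPM over all 7 libraries, those of erythroid cells to 2.16 to 3.67 and those of fibroblasts to 1.38 to 3.58. Markers of monocytes and macrophages summed to 8.22 to 9.25 CPM in WT and 15.1 to 17.9 in KO. These were low but did not overlap between genotypes, 1 of the 6 markers in the table was at 0 in all 7 libraries, and their part in the results was not tested. Only 1 of these markers, Cd68, passed the filter on low counts. Its log2 fold change of KO over WT was 0.89 (edgeR adjusted p = 0.114).

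Kdm6b (GRCm38 chromosome 11, 69398508 to 69413675, minus strand), the targeted gene, was read at 33.5, 43.1, 51.1 and 60.6 CPM in WT and at 30.3, 28.6 and 43.3 CPM in KO. The groups overlapped, and the log2 fold change of KO over WT was -0.44 ± 0.20 (SE), with a 95% interval of -0.84 to -0.04 and an edgeR adjusted p of 0.285. On the deposited TPM scale, which is per length, the WT libraries stood at 7.05, 7.31, 8.42 and 9.87 and the KO libraries at 7.45, 4.85 and 6.93. A gene-level value adds up all exons, those outside the deleted part included, so the genotype labels were checked only in part. Kdm6a did not pass either (-0.12 ± 0.17, adjusted p = 0.80 by edgeR, interval -0.47 to 0.22).

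A gene was called where edgeR's Benjamini-Hochberg adjusted p was under 0.05. Of 10985 genes tested, 334 were called (3.04%), with 252 higher in KO (2.29%) and 82 lower (0.746%). Without adjustment 1591 genes had a p under 0.05. The change was at least 2-fold for 89 of the higher and 23 of the lower genes. The 3 KO values and the 4 WT values did not overlap for 248 of the higher and 76 of the lower genes, against 1768 of all 10985. On TPM the calls were 157 higher and 95 lower. With only the 7 libraries in the fit, 443 genes were called (349 higher and 94 lower), 300 of them among the 334. Leaving out 1 library at a time left 126 to 337 calls (126 without KO replicate 3, 171 without KO replicate 1, 221 without KO replicate 2 and 218 without WT replicate 3), and 81 higher and 9 lower genes were called in all 7 of these fits.

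**Figure D1:**
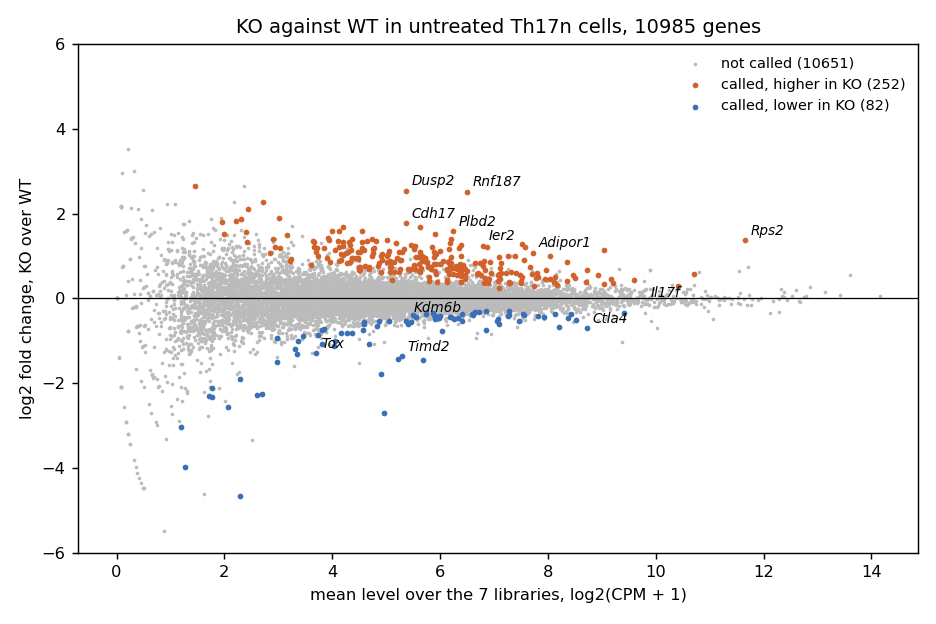
Each point is 1 of the 10985 genes tested, with the mean level over the 7 libraries as log2(CPM + 1) on the x axis and the log2 fold change of KO over WT on the y axis. Orange points are the 252 genes called higher in KO, blue points the 82 called lower, and grey points those not called, among them Kdm6b at -0.44 and Il17f at -0.10.

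The genes with the largest changes were of mixed function, and those higher in KO encode a phosphatase, ubiquitin ligases, adhesion proteins, a mitochondrial calcium channel subunit and enzymes. The rule for named genes asked for at least 10 CPM and groups that do not overlap. It also asked for a call in all 7 fits that leave out 1 library. The rule was met by 79 genes higher in KO with an approved symbol. The 12 of these with the largest changes are given, from 5.82-fold (Dusp2) to 2.63-fold (Peli1). Only 7 genes met the same rule among those lower in KO, and these were Timd2, Tox, P2ry10, Ctla4, Cd200, Klf6 and Rgs1.

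RefSeq's promoter table (GRCm38.p6) held 8671 of the 10985 genes tested, and 200 of the 252 higher and 59 of the 82 lower genes. Since under 80% of the called genes had an entry, promoter composition was not tested between them. The 250 bases before the RefSeq start are shown for 6 of the 19 named genes, chosen after their values were seen, so that the stretches next to genes the results turn on can be read. Dusp2, Rnf187 and Kctd13 return in the comparison with DFMO, Timd2 had the largest fall of the 7 lower genes, and Cd200 and Klf6 were called lower in all 4 cultures. Capitals mark a GC box (GGGCGG, or CCGCCC on the other strand) or a CCAAT box (CCAAT or ATTGG). The first 3 belong to genes higher in KO: Dusp2 (chr2:127335909-127336158, plus strand), Rnf187 (chr11:58938907-58939156, minus strand) and Kctd13 (chr7:126928629-126928878, plus strand). The last 3 belong to genes lower in KO: Timd2 (chr11:46707105-46707354, minus strand), Cd200 (chr16:45409054-45409303, minus strand) and Klf6 (chr13:5861239-5861488, plus strand).
Dusp2: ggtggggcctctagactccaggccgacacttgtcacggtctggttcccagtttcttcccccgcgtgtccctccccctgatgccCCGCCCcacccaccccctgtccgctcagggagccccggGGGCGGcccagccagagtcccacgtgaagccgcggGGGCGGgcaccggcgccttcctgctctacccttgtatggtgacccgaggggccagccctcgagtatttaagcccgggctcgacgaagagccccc
Rnf187: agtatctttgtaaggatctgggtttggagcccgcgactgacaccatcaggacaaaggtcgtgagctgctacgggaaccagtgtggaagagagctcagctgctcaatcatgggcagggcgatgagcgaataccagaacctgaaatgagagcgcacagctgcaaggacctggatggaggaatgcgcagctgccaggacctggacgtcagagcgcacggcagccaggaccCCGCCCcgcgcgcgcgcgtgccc
Kctd13: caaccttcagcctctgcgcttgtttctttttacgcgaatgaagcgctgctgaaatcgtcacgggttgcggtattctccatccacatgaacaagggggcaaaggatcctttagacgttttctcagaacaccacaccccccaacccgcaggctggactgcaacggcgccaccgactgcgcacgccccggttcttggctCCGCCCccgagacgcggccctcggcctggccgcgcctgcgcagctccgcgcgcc
Timd2: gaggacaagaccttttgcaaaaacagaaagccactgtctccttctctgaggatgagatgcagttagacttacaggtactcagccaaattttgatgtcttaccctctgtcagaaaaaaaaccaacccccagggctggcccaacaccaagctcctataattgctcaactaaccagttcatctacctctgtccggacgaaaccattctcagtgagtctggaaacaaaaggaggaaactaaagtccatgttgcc
Cd200: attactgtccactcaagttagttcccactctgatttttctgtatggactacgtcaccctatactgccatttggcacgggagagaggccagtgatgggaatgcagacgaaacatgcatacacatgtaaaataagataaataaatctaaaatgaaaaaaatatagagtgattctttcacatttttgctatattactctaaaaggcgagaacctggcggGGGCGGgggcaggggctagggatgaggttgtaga
Klf6: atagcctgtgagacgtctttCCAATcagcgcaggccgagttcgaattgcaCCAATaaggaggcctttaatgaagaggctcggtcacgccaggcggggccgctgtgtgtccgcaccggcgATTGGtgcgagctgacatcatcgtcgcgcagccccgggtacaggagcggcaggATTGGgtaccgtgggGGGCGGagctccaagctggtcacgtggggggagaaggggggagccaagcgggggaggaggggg
The windows of Dusp2, Rnf187, Kctd13, Timd2, Cd200 and Klf6 held 19, 18, 26, 2, 6 and 21 CpG dinucleotides. Over all 8671 promoters the median was 16. It was 16 for the 200 higher and 15 for the 59 lower genes with an entry, so the 6 windows do not stand for their groups. A GC box was found in all of these windows except that of Timd2, and in 59.7% of all 8671. A CCAAT box was found only in that of Klf6 among the 6, and in 37.2% of all. TATAAA (6.33% of all promoters on either strand), TGACGTCA (2.86%) and TGANTCA (4.01%) were searched as well and were found in 0 of the 6 windows. These matches describe the letters only.

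Among the genes higher in KO, the 2 with the largest change differed in what they encode. Dusp2 (chromosome 2, 127336159 to 127338376, plus strand), a nuclear phosphatase that switches off MAP kinases in activated lymphocytes, was read at 9.52, 13.1, 15.5 and 14.9 CPM in WT and at 61.0, 71.6 and 96.8 CPM in KO. Its log2 fold change was 2.54 ± 0.29 (edgeR adjusted p = 3.37e-06). Rnf187 (chromosome 11, 58932288 to 58938916, minus strand), a RING-type ubiquitin ligase, was read at 29.4, 29.6, 29.8 and 30.5 CPM in WT, hardly varying between animals. In KO it stood at 156, 160 and 194 CPM, which is 5.70-fold higher (2.51 ± 0.29, edgeR adjusted p = 4.05e-06). For both genes the lowest KO library lay far above the highest WT library. Of the 12 genes, 9 (Dusp2, Rnf187, Kctd13, Micu2, Plbd2, Cactin, Donson, Pithd1 and Peli1) had the 2 lowest of the 8 group means in the untreated WT libraries of both cell types, and for them a property of those libraries and an effect of genotype cannot be told apart, since the labels name no library batch.

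Cdh17, a cadherin of cell adhesion, followed with 12.3, 32.0, 14.5 and 20.6 CPM in WT and 53.2, 70.8 and 77.6 in KO (1.77 ± 0.28, edgeR adjusted p = 0.000342). Kctd13, an adaptor of the cullin-3 ubiquitin ligase, was read at 10.8, 7.0, 9.15 and 8.44 CPM in WT and 32.1, 21.1 and 32.5 in KO (1.69 ± 0.25). Micu2, which gates the mitochondrial calcium uniporter, stood at 24.9, 20.5, 30.4 and 24.2 against 78.9, 69.2 and 93.0 CPM (1.69 ± 0.22). Each of these was more than 3-fold higher in KO. Plbd2, which encodes a lysosomal phospholipase B-like protein, stood at 29.0, 36.8, 51.7 and 43.1 CPM in WT and 108, 132 and 122 in KO (1.59 ± 0.18, edgeR adjusted p = 3.37e-06). Enpp2, which encodes autotaxin, the secreted enzyme that makes lysophosphatidic acid, stood at 29.0, 37.0, 43.4 and 22.1 against 125, 79.6 and 78.4 CPM (1.51 ± 0.29). The Enpp2 call was lost with DESeq2 (1.53, adjusted p = 0.100).

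The remaining 5 of the 12 were 2.63- to 3.01-fold higher. Cactin, a spliceosome-associated protein gene, was read at 7.87 to 9.25 CPM in WT and 22.7 to 32.6 in KO, and Donson, a replication fork factor gene, at 10.6 to 14.7 and 33.8 to 39.8. The Donson call was lost on TPM (1.26, limma adjusted p = 0.101). Pkp2, of the desmosome plaque, stood at 4.54 to 10.4 CPM in WT and 19.7 to 25.9 in KO, and Pithd1 at 11.3 to 18.8 and 36.6 to 42.8. Peli1, a ubiquitin ligase that restrains NF-kB signalling in T cells, was read at 40.2, 38.8, 42.5 and 49.6 CPM in WT and 110, 111 and 117 in KO (1.39 ± 0.20, edgeR adjusted p = 6.97e-05). In all 12 genes the WT and KO libraries separated completely, as the rule required.

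The 7 genes lower in KO that met the rule changed less than the 12 higher ones. Larger falls among genes outside the rule are given further on. Timd2 (chromosome 11, 46668960 to 46707061, minus strand), a TIM-family surface receptor, was read at 40.9, 45.4, 63.8 and 56.3 CPM in WT and 23.4, 19.5 and 18.1 in KO (-1.36 ± 0.23, edgeR adjusted p = 0.00064). Tox, a nuclear factor of exhausted and follicular helper T cells, stood at 12.3, 13.5, 18.1 and 19.9 CPM in WT and 6.88, 6.76 and 6.05 in KO (-1.29 ± 0.24). These were the 2 of the 7 that were more than 2-fold lower. Ctla4 (chromosome 1, 60887000 to 60915832, plus strand), the inhibitory receptor that competes with CD28 for its ligands, was read at 399, 499, 520 and 604 CPM in WT and 259, 336 and 335 in KO (-0.70 ± 0.13, edgeR adjusted p = 0.00223). Cd200, a surface glycoprotein that damps myeloid cells, was read at 325, 366, 354 and 351 CPM in WT and 225, 193 and 242 in KO (-0.66 ± 0.09, edgeR adjusted p = 3.06e-05).

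P2ry10, a receptor gene for lysophospholipids, was read at 64.7 to 95.3 CPM in WT and 43.6 to 48.6 in KO (-0.77 ± 0.15). Klf6, a zinc finger factor gene of the early activation response, stood at 189, 211, 190 and 226 against 144, 144 and 133 CPM (-0.54 ± 0.11). Rgs1, which limits signalling by chemokine receptors, stood at 377 to 467 against 283 to 307 CPM (-0.51 ± 0.10). The calls of Klf6 (-0.45, edgeR adjusted p = 0.0755) and Rgs1 (-0.36, edgeR adjusted p = 0.136) were lost with an offset for GC content. The other 5 lower genes kept their calls under that offset.

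**Figure D2:**
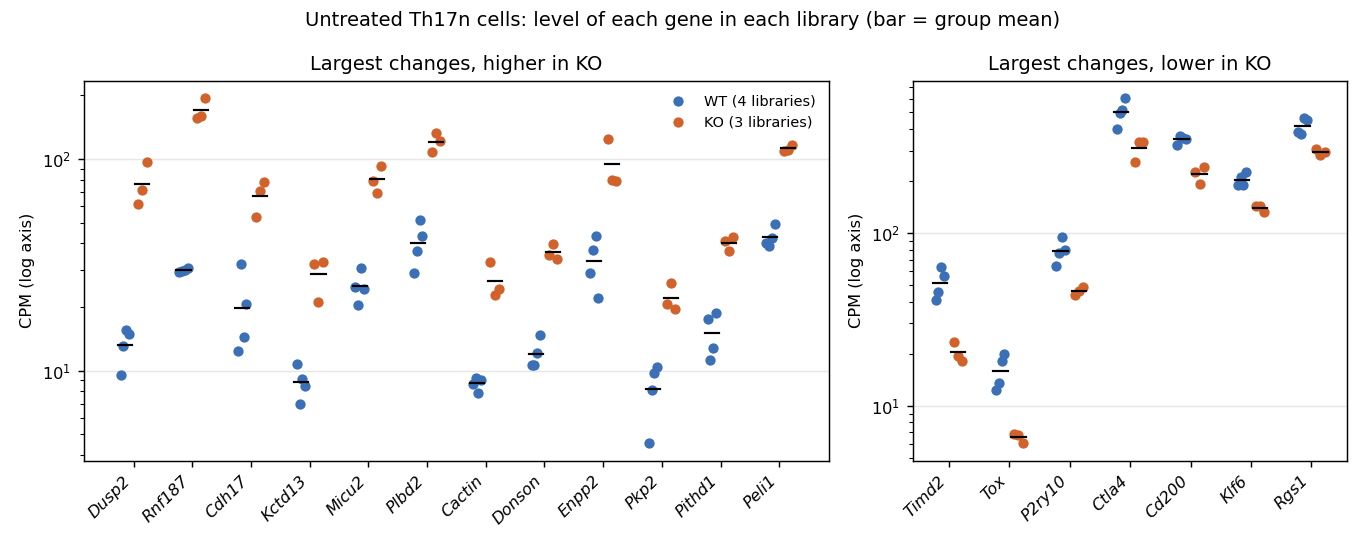
Each point is the CPM of 1 library on a log axis, blue for the 4 WT and orange for the 3 KO libraries of untreated Th17n cells, and each bar is a group mean. The left panel holds the 12 genes higher in KO, from Dusp2 (WT 9.52 to 15.5, KO 61.0 to 96.8) to Peli1 (WT 38.8 to 49.6, KO 110 to 117), and the right panel the 7 lower genes.

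The signature cytokine genes of the Th17 culture were not called. Of Kdm6b, Kdm6a and the 5 lineage genes given here, 0 were called by edgeR and 0 by DESeq2, and 3 had an unadjusted p under 0.05. Il17a was read at 58.2, 169, 128 and 251 CPM in WT and 58.7, 105 and 90.2 in KO (-0.83 ± 0.40, edgeR adjusted p = 0.342, interval -1.64 to -0.02). The range of the WT animals contained all 3 KO values, and the gene was called only with no filter on low counts (-0.85, edgeR adjusted p = 0.00059). Il17f stood at 620, 1024, 690 and 1332 CPM in WT and 711, 984 and 872 in KO (-0.10 ± 0.32, interval -0.76 to 0.56). The Il17f interval reaches well to either side of 0, so equal levels were not shown.

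Il23r, the IL-23 receptor chain that stabilises Th17 cells, and Il10, the anti-inflammatory cytokine of the non-pathogenic form, did not overlap between the groups. Neither was called, and 1768 of all 10985 genes tested did not overlap between the groups. Il23r was read at 13.0, 10.6, 10.2 and 15.1 CPM in WT and 6.88, 6.76 and 9.33 in KO (-0.65 ± 0.32, edgeR adjusted p = 0.358), and it was called on TPM (-0.54, limma adjusted p = 0.0474). Il10 was read at 3.24, 4.51, 6.81 and 6.06 CPM in WT and 12.8, 9.55 and 8.57 in KO (0.98 ± 0.41, edgeR adjusted p = 0.247, interval 0.14 to 1.81). Foxp3, the regulatory T cell factor, stood at 6.77 to 14.7 CPM in WT and 3.78 to 8.36 in KO (-0.61 ± 0.35, adjusted p = 0.431 by edgeR).

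**Figure D3:**
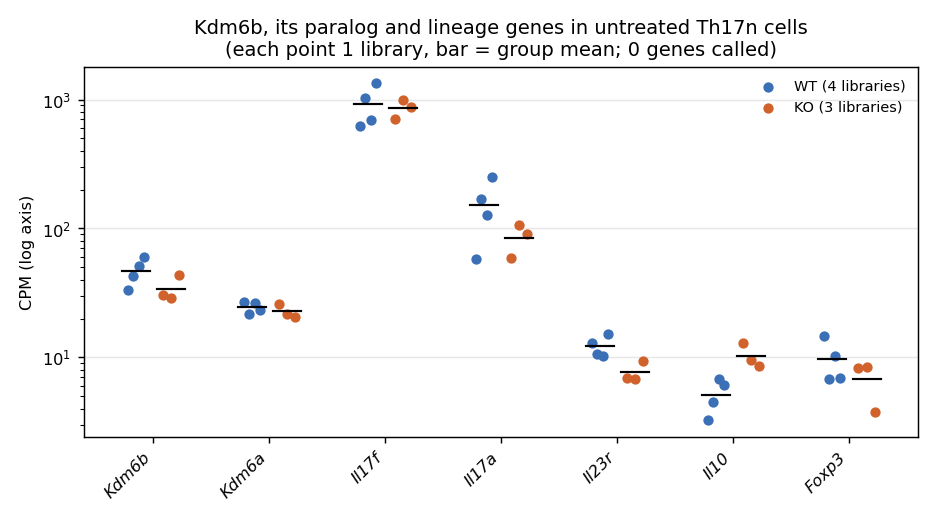
Each point is the CPM of 1 library on a log axis for Kdm6b, Kdm6a and 5 lineage genes, blue for WT and orange for KO, with group means as bars. Only Il23r (10.2 to 15.1 against 6.76 to 9.33) and Il10 (3.24 to 6.81 against 8.57 to 12.8) separated the groups. Of all 10985 genes tested 1768 did so, and 0 of the 7 genes shown were called by edgeR.

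Of 24 tested genes of the wider Th17 programme, 1 was called, beside 3.04% of all genes tested. It was Tgfb3, a TGF-beta known from pathogenic Th17 cells, at 67.9 to 118 CPM in WT and 155 to 166 in KO (0.85 ± 0.20, edgeR adjusted p = 0.0165). The list's median log2 fold change was -0.06, beside -0.01 over all genes tested. The Tgfb3 call held only without WT replicate 2 or 4, and the fits without any 1 of the other 5 libraries lost it (0.74 to 0.88). Of 21 genes of the Treg programme 0 were higher and 2 lower, namely Ctla4 and Ikzf2, which encodes Helios (6.92 to 11.7 CPM in WT, 2.27 to 4.13 in KO, -1.51 ± 0.38). The Ikzf2 call held only without WT replicate 1 or 4 (-1.20 to -1.65 in the other 5 fits), and it was lost with the animal as a random block (-1.47, limma adjusted p = 0.201). Of 18 Th1 genes 0 were called by edgeR and 0 by DESeq2, 1 had an unadjusted p under 0.05, and the median was -0.28.

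The Th2 list, 9 genes tested, had 2 higher and 1 lower, beside 2.29% and 0.746% of all genes tested. Nfil3, a basic leucine zipper factor of type 2 cytokine genes, was read at 65.3, 74.7, 74.0 and 112 CPM in WT and 157, 139 and 156 in KO (0.89 ± 0.14, edgeR adjusted p = 0.000344). Gata3, the master factor of Th2 cells, stood at 5.42 to 6.71 CPM in WT and 8.82 to 14.3 in KO (0.89 ± 0.21), a call lost without KO replicate 2 (0.69) and with the animal as a random block (0.85, limma adjusted p = 0.0609). Il9, the cytokine of Th9 cells, stood at 27.3 to 126 CPM in WT and 18.7 to 35.4 in KO (-1.44 ± 0.39). Its groups overlapped, and its call held only without WT replicate 1 or 2 (-0.98 to -1.73 in the other 5 fits). The Il9 call was lost as well with the random block (-1.33, limma adjusted p = 0.127) and with DESeq2 (-1.40, adjusted p = 0.0594). In the follicular helper list 2 of 13 were lower, Tox and Cd200, and 0 were higher.

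Of 21 inhibitory and costimulatory receptor genes 0 were called higher and 5 lower, beside 2.29% and 0.746% of all genes tested, and the median was -0.18. Besides Cd200, Timd2 and Ctla4 these were Havcr1 (TIM-1), at 5.41 to 8.57 CPM in WT and 0.504 to 3.18 in KO (-2.27 ± 0.61), and Cd226 (DNAM-1), at 18.6 to 25.9 against 12.6 to 13.1 (-0.82 ± 0.23). The Havcr1 call held only without KO replicate 2 or WT replicate 1 (-1.71 to -2.23 in the other 5 fits), and its KO counts were 3, 8 and 2 reads. The Cd226 call held only without WT replicate 1 (-0.74 to -0.87 in the other 6 fits) and was lost with the random block (-0.79, limma adjusted p = 0.127). Timd2 and Havcr1 are neighbouring members of one receptor family on chromosome 11, so reads could be split between them.

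Immediate early genes moved both ways, with 1 of 26 higher and 5 lower (median 0.05), beside 2.29% and 0.746% of all genes tested. Ier2 was higher, from 61.4, 65.4, 74.7 and 75.5 CPM in WT to 166, 171 and 156 in KO (1.24 ± 0.18, edgeR adjusted p = 7.54e-05). Lower beside Klf6 were Nr4a3, an orphan nuclear receptor gene induced by antigen receptor signals (20.3 to 42.8 CPM in WT, 12.4 to 20.7 in KO, -1.07 ± 0.22), and Atf3, a stress-induced factor gene (21.9 to 27.8 against 11.5 to 14.9, -0.83 ± 0.18). The Nr4a3 call was lost without KO replicate 3 (-0.91) and the Atf3 call without KO replicate 1 (-0.73). Of 9 tested genes of the response to tissue dissociation, which overlaps this list, 1 was called, and it was Atf3. The list summed to 273 to 283 CPM in WT and 284 to 288 in KO, and its part in the result was not tested.

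Among signalling genes, the phosphatase list had 2 of 19 called, both higher, beside 2.29% of all genes tested that were called higher. Dusp6, a cytoplasmic phosphatase of ERK, joined Dusp2 at 19.2 to 23.8 CPM in WT and 37.1 to 38.3 in KO (0.83 ± 0.18, edgeR adjusted p = 0.00657), a call lost on TPM (0.67). In the NF-kB list 2 of 21 were higher, Rela, the p65 subunit (63.2 to 69.6 against 92.2 to 123 CPM, 0.64 ± 0.13), and Tnip2, an inhibitor of the pathway (0.46 ± 0.12). The Rela call was lost without KO replicate 3 (0.49), and that of Tnip2 held only without KO replicate 2 or WT replicate 2 (0.34 to 0.50 in the other 5 fits). T cell receptor signalling had 1 of 31 higher, which is near the share over all genes. It was Malt1 (267 to 318 against 393 to 482 CPM, 0.55 ± 0.12), a call lost without KO replicate 3 (0.46).

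In the TGF-beta response list 2 of 26 genes were higher and 1 lower, beside 2.29% and 0.746% of all genes. Tgfbr2, the type II receptor, stood at 54.1 to 70.8 CPM in WT and 94.5 to 104 in KO (0.69 ± 0.18), and Id1, a target gene of the BMP branch, at 10.8 to 13.8 against 3.67 to 6.76 (-1.31 ± 0.32). The Tgfbr2 call held only without WT replicate 4 (0.63 to 0.73 in the other 6 fits), and the Id1 call was lost without KO replicate 1 (-1.16) or 3 (-1.22). Socs3, the feedback inhibitor of IL-6 signalling, was the 1 of 21 STAT3 response genes called (434 to 524 against 577 to 612 CPM, 0.34 ± 0.10), and its call held only without WT replicate 2 (0.31 to 0.37 in the other 6 fits). Of 33 interferon-stimulated genes 0 were called by edgeR and 1 by DESeq2, with 5 at an unadjusted p under 0.05. Of 20 chemokine and chemokine receptor genes 0 were called by edgeR and 2 by DESeq2, with 3 at an unadjusted p under 0.05.

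Adhesion and migration genes held 4 of 24 higher and 1 lower, beside 2.29% and 0.746% of all genes tested. Besides Cdh17, Ecm1, a secreted matrix protein gene known from T cell egress, was read at 91.0, 147, 79.1 and 172 CPM in WT and 258, 296 and 293 in KO (1.21 ± 0.20, edgeR adjusted p = 0.000456), a call lost on TPM (1.01). Itgb7, the beta-7 chain of the gut-homing integrins, stood at 154, 163, 212 and 206 CPM in WT and 373, 358 and 368 in KO (1.00 ± 0.17, edgeR adjusted p = 0.00064). Itgb2, the beta-2 chain, was 1.29-fold higher (0.36 ± 0.09), a call that held only without WT replicate 1 or 2 (0.34 to 0.39 in the other 5 fits). Cd44, the hyaluronan receptor of activated cells, was lower, at 107, 139, 135 and 173 CPM in WT and 55.5, 95.9 and 94.8 in KO (-0.74 ± 0.17, edgeR adjusted p = 0.0107), a call lost without KO replicate 1 (-0.53).

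Over the chromatin lists the share called was read beside the 3.04% of all genes. Of 24 tested genes that write, read or erase H3K27 methylation 0 were called by edgeR and 0 by DESeq2, with 4 at an unadjusted p under 0.05 and a median of -0.08. Of 16 genes of the COMPASS and MLL complexes, which write H3K4 methylation, 0 were called by edgeR and 0 by DESeq2, with 1 at an unadjusted p under 0.05. Among 21 JmjC demethylases 2 were higher. Kdm5b, an H3K4 demethylase, stood at 76.6, 96.8, 83.6 and 79.4 CPM in WT and 131, 117 and 128 in KO (0.58 ± 0.10, edgeR adjusted p = 0.000719), a call lost on TPM (0.48). Kdm4b, an H3K9 demethylase, stood at 40.8 to 56.0 CPM in WT and 66.9 to 100 in KO (0.81 ± 0.18), a call lost without KO replicate 3 (0.65). Of 54 developmental regulators that are classic Polycomb targets 0 passed the filter on low counts, and 22 had a count of 0 in all 7 libraries. Their summed level was 3.61 to 7.66 CPM in WT and 5.17 to 7.31 in KO, so a change in them was not detectable at this depth.

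Housekeeping programmes were also set beside the 3.04% of all genes. Of 76 cytosolic ribosomal protein genes 1 was called, Rps2, from 1488, 1563, 2218 and 2417 CPM in WT to 4865, 4754 and 5329 in KO (1.37 ± 0.19, edgeR adjusted p = 3.9e-05), while the list's median was -0.06. Of 31 ribosome biogenesis genes 1 was called, Fbl, the nucleolar methyltransferase fibrillarin (20.8 to 30.5 against 50.9 to 58.1 CPM, 1.10 ± 0.23), with a median of -0.15 and 25 of 31 values below 0. Both are genes with processed pseudogenes, so their reads are uncertain. In the polyamine list 2 of 22 were higher, Srm, the spermidine synthase (0.75 ± 0.18), and Oaz2, an antizyme (0.61 ± 0.15). The Srm call was lost without KO replicate 3 (0.64) or WT replicate 1 (0.71) or 2 (0.66), and that of Oaz2 held only without WT replicate 2 or 4 (0.54 to 0.66 in the other 5 fits).

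Of 23 glycolysis, 45 nuclear-encoded respiratory chain, 24 cholesterol synthesis, 35 DNA replication, 26 G2 and M phase and 26 ATF4 stress genes, 0 were called in each list by edgeR and by DESeq2, with 4, 5, 3, 9, 0 and 9 genes at an unadjusted p under 0.05. The medians were 0.15, -0.08, 0.03, -0.10, -0.04 and -0.23. Of all genes tested 3.04% were called. All 13 mitochondrially encoded genes had lower fitted values in KO (median -0.54). Their summed levels overlapped, at 6728 to 14577 CPM in WT and 5812 to 9840 in KO. The mitochondrial share of counts rose with the replicate number in both genotypes, and only WT had a replicate 4. Of the 13, 1 was called, mt-Nd4l, at 29.4 to 82.7 CPM in WT and 0, 0 and 17.1 in KO. Its call was lost without KO replicate 1 (-2.27) or 2 (-2.22) and with the animal as a random block (limma adjusted p = 0.171). The remaining single calls in lists were Txk higher and Foxp1 lower among naive and memory genes, Bcl2l1 lower among STAT5 genes, Plk2 lower among p53 targets, and Dnajb11 higher and Hspe1 lower among chaperones. Each of these 6 calls was lost without KO replicate 1 (fitted values of 0.50, -0.49, -0.30, -0.46, 0.77 and -0.34 in that order) and without 2 to 5 other libraries, and that of Plk2 also with the random block (-0.52, limma adjusted p = 0.0998).

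Other settings also ended calls of genes named from the lists. On TPM these were Kdm4b, Gata3, Ikzf2, Il9, Cd226, Tnip2, Socs3, Bcl2l1, Tgfbr2, Itgb2, Foxp1, Txk, Oaz2, Plk2 and Dnajb11, beside those given with their values (limma adjusted p from 0.0569 to 0.454). After thinning they were Gata3, Havcr1, Cd226, Atf3, Tnip2, Socs3, Bcl2l1, Tgfbr2, Itgb2, Txk, Oaz2, Plk2 and Hspe1 (edgeR adjusted p from 0.0681 to 0.192). Havcr1 and Cd226 were lost with the GC content offset (edgeR adjusted p = 0.0525 and 0.0813), Gata3, Il9 and Plk2 with only the groups compared (0.0663, 0.0551 and 0.0826), and Socs3 with no filter on low counts (0.0736).

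Ly6g, whose protein is the Gr-1 marker of neutrophils, was called higher in KO, at 49.5, 65.4, 31.9 and 37.7 CPM in WT and 110, 130 and 72.8 in KO (1.17 ± 0.24, edgeR adjusted p = 0.00814), a call lost without KO replicate 2 (0.98). It was the only 1 of 7 neutrophil markers that passed the filter, and it made up most of their summed level of 32.6 to 65.7 CPM in WT and 73.6 to 130 in KO. In the iTreg ctrl libraries it was at 0 CPM in all 7. More cells that carry Ly6g and more Ly6g RNA per cell cannot be told apart in these bulk samples.

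Genes next to the floxed locus were counted, since they can travel with a targeted allele. Within 10 Mb of Kdm6b 235 genes were tested, and 6 were higher and 1 lower in KO, which is 2.98% against 3.04% of all genes and 3.61% of chromosome 11. Of these, Traf4 (0.89 ± 0.19), Smtnl2 (1.13 ± 0.25), Serpinf1 (0.54 ± 0.13), Elac2 (0.69 ± 0.16) and Acap1 (0.43 ± 0.11) were higher, and Pfas (-0.44 ± 0.11) was lower. The calls of Traf4 (0.75), Smtnl2 (0.89), Serpinf1 (0.52), Elac2 (0.67) and Acap1 (0.38) were lost without KO replicate 3. Those of Elac2 (0.64), Acap1 (0.47) and Pfas (-0.35) were lost without KO replicate 1, and those of Serpinf1 (0.50), Acap1 (0.44) and Pfas (-0.42) without KO replicate 2. On TPM Traf4, Serpinf1 and Elac2 and after thinning Smtnl2, Serpinf1, Elac2 and Acap1 lost their calls, and Pfas did with only the groups compared. Leaving out WT replicate 1 (Acap1, 0.36), 3 (Serpinf1, 0.45, and Acap1, 0.38) or 4 (Pfas, -0.37) also lost calls. Over the whole of chromosome 11, 23 of 914 genes were higher and 10 lower, beside 2.29% and 0.746% of all genes tested. Rnf187, Peli1, Timd2 and Havcr1 are among these but lie outside the 10 Mb window.

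The same animals gave 3 more KO against WT comparisons, each between the groups of its own culture within the same model. In either direction 112 genes were called in Th17n DFMO (1.02%), 582 in iTreg ctrl (5.30%) and 455 in iTreg DFMO (4.14%). Of the 252 genes higher in untreated Th17n KO cells, 162 were also called higher in untreated iTreg KO cells, which is 64.3% of these and 46.6% of the 348 called there (3.17% of genes tested). With DFMO in Th17n cells 23 of the 252 were called higher, 9.13% of these and 32.4% of the 71 called there (0.646%). In iTreg cells with DFMO 21 were, 8.33% of these and 10% of 210 (1.91%). The median log2 fold change of the 252 genes was 0.86 in Th17n ctrl, which chose them, 0.75 in iTreg ctrl, 0.09 in Th17n DFMO and 0.23 in iTreg DFMO, while the medians over all genes in these other cultures were -0.01, 0.00 and 0.00.

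For the 82 lower genes the counts in the other cultures lay closer together. In iTreg ctrl 28 were called lower (34.1% of these and 12% of 234, 2.13% of genes tested), in Th17n DFMO 19 (23.2% of these and 46.3% of 41, 0.373%), and in iTreg DFMO 18 (22% of these and 7.35% of 245, 2.23%). Their medians were -0.33, -0.25 and -0.19, beside -0.58 in Th17n ctrl. The animals are the same in all 4 cultures, so from recurrence alone differences between animals and an effect of genotype cannot be told apart.

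**Figure D4:**
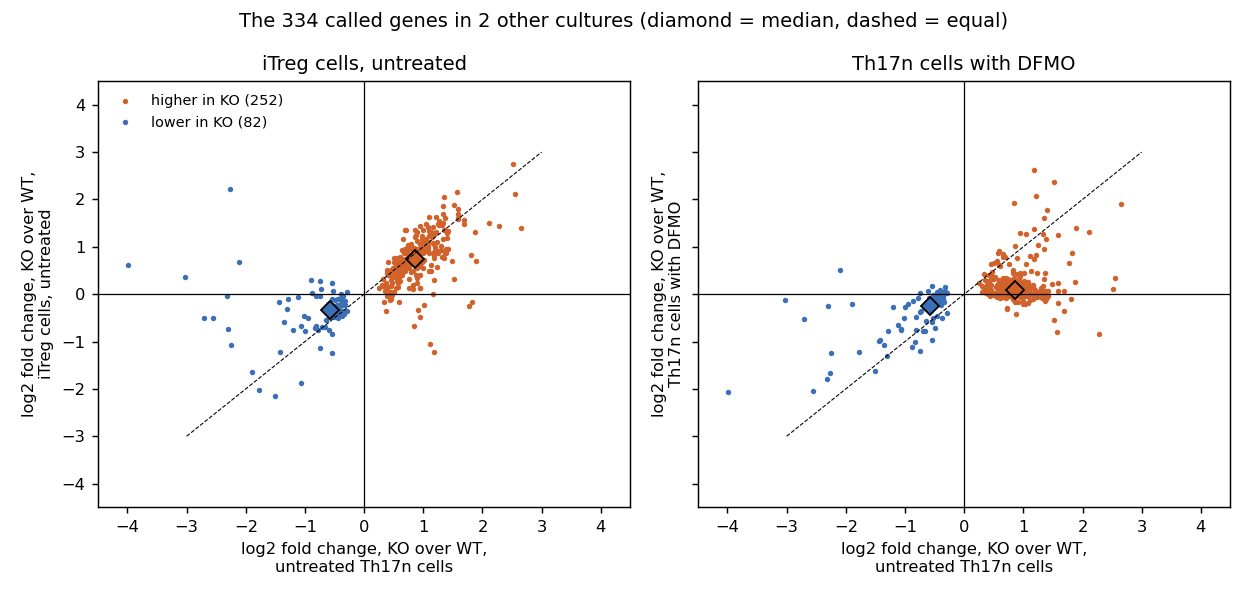
Each point is 1 of the 334 called genes, with its log2 fold change of KO over WT in untreated Th17n cells on the x axis and in untreated iTreg cells (left) or Th17n cells with DFMO (right) on the y axis. Diamonds are medians: the 252 higher genes sit at 0.75 on the left and at 0.09 on the right, and 1 point on the left and 2 on the right lie outside the axes.

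Whether the KO effect differed with DFMO was tested directly, by the difference of the KO effects in untreated and DFMO-treated Th17n cells. The test called 36 genes (0.328%) by edgeR and 57 with the animal as a block, and 753 passed p under 0.05 before adjustment. For 32 genes (0.291%) the KO effect was larger without DFMO. All 32 were among the 252 higher genes, a comparison that shares its libraries with this test. All 32 were also called higher in iTreg ctrl, and 0 were called in either DFMO culture. The iTreg ctrl libraries were not in this difference, but they share its model and its animals, so their calls are not independent of it. In Th17n DFMO the small effects follow from the choice of these genes and are a description. Their median effects were 1.25 in Th17n ctrl, 1.31 in iTreg ctrl, -0.03 in Th17n DFMO and 0.14 in iTreg DFMO.

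Levels show where these genes differed. For 30 of the 32 genes, the 2 lowest of the 8 group means were those of the untreated WT cultures, Th17n ctrl WT and iTreg ctrl WT. Whether those libraries were prepared apart from the others is not given in the sources used here, so a feature of the untreated WT libraries and a KO effect cannot be told apart for these genes. Rnf187, at 29.4 to 30.5 CPM in untreated WT and 156 to 194 in untreated KO Th17n cells, stood at 373, 362, 357 and 360 CPM in WT and 406, 386 and 390 in KO with DFMO (difference of the KO effects 2.39 ± 0.40, edgeR adjusted p = 0.0029). In iTreg ctrl it was at 30.3, 31.4, 29.7 and 16.0 CPM in WT and 160, 236 and 158 in KO. Both DFMO groups were therefore above both untreated groups, and the untreated WT libraries of the 2 cell types had similar levels, apart from the 1 at 16.0 CPM.

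Plbd2 was read at 29.0 to 51.7 CPM in untreated WT and 108 to 132 in untreated KO cells, and at 117 to 140 against 108 to 115 with DFMO (1.77 ± 0.24, edgeR adjusted p = 0.000607). Lsm4, an Sm-like protein gene of RNA processing, was read at 33.1 to 54.3 CPM in untreated WT, 107 to 111 in untreated KO, and 126 to 143 against 129 to 136 with DFMO (1.34 ± 0.20). Kctd13 stood at 42.5 to 59.9 CPM in WT and 36.5 to 41.8 in KO with DFMO (2.06 ± 0.32). Adipor1, an adiponectin receptor gene, was read at 122 to 165 CPM in untreated WT and 281 to 324 in untreated KO (1.08 ± 0.12), and at 205 to 243 against 226 to 253 with DFMO (0.99 ± 0.17). In these 4 genes the untreated WT libraries were the low ones, and the KO ranges of the 2 treatments lay closer together than the WT ranges. Rps2 followed them, at 5416 to 6223 CPM in WT and 5032 to 5740 in KO with DFMO (1.49 ± 0.27, edgeR adjusted p = 0.0055).

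In iTreg cells with DFMO, WT replicate 4 stood apart for these genes. It was the lowest of the 4 WT libraries of that group for 28 of the 32, for example 91.8 CPM of Rnf187 against 408 to 483 in the others, and 31.6 CPM of Dusp2 against 111 to 131. The 32 genes had a median GC content of 55.7% over their transcripts, against 50.3% for all genes tested, 53.8% for the 252 higher and 46.8% for the 82 lower genes. With an offset for GC content 34 genes were called in place of 36. Of the 334 calls of KO against WT, 291 remained with that offset and 191 after thinning all libraries to the depth of the shallowest. Depth and the GC content of the called genes move together with the genotype here, and their part beyond these values was not tested.

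The 4 genes (0.0364%) with a smaller KO effect without DFMO included Ly6g, the only 1 of them that was also called higher in untreated KO cells. With DFMO it stood at 0, 0.440, 0.780 and 0.269 CPM in WT and at 21.8, 10.1 and 21.7 in KO (difference of the KO effects -4.29 ± 0.63, edgeR adjusted p = 0.00221). Between untreated Th17n and untreated iTreg cells the KO effect differed for 3 genes (0.0273%) by edgeR and for 8 with the animal as a block, and 674 passed p under 0.05 before adjustment. These were Ly6a (4.56 ± 0.71), Sgk1 (1.63 ± 0.27) and Inhba, named after their values were seen. Inhba was at 0 CPM in all 3 iTreg ctrl KO libraries and at 1.58 to 6.05 CPM in WT, so its fitted difference has no measured size and is not given. None of them was called in Th17n ctrl (0.08 ± 0.42, 0.13 ± 0.17 and 0.36 ± 0.21 in the same order), and all were lower in KO iTreg cells. The count was 0 without iTreg ctrl KO replicate 3 (4.48 for Ly6a and 1.52 for Sgk1, with adjusted p of 0.0727, 0.0727 and, for Inhba, 0.148 by edgeR) and 1 without iTreg ctrl KO replicate 1.

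A smaller set was called in all 4 cultures. Of the 82 lower genes 8 were called lower in each, namely Cd200, Klf6, Atf3, Nr4a3, Cd44, Ikzf2, Plk2 and Lad1, and of the 252 higher genes 7 were called higher in each, Ecm1 and Eng among them. Lad1 and Eng were named after their values were seen. With the animal as a random block the Th17n ctrl calls of Ikzf2 (limma adjusted p = 0.201), Plk2 (0.0998) and Lad1 (0.0524) were lost, the Lad1 call was lost without KO replicate 3 (-1.93, edgeR adjusted p = 0.0745), and the Klf6 call with the GC content offset (0.0755). Cd200 was lower in KO by 0.66 ± 0.09 in Th17n ctrl, and its fitted values were -0.79 ± 0.09 in Th17n DFMO, -0.70 ± 0.09 in iTreg ctrl and -1.23 ± 0.09 in iTreg DFMO. Its KO libraries stayed below its WT libraries in every culture, from 193 to 242 against 325 to 366 CPM in Th17n ctrl to 71.3 to 77.6 against 156 to 180 in iTreg DFMO.

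Klf6 had values of -0.54, -0.59, -0.85 and -1.28 in the same order, and Cd44 of -0.74, -1.19, -1.13 and -1.68. Ecm1 was higher in KO by 1.21, 2.08, 1.63 and 1.96, although its level ranged from 2.08 CPM in iTreg DFMO WT to 296 CPM in Th17n ctrl KO. For Cd200, Klf6 and Cd44 the difference of the KO effect between untreated and DFMO-treated Th17n cells was not called (0.12 ± 0.12, 0.05 ± 0.15 and 0.45 ± 0.24). Timd2 was lower in KO in both Th17n cultures (-1.36 and -1.06) and in iTreg DFMO (-1.25), and Ctla4 in both Th17n cultures and iTreg ctrl (-0.70, -0.77 and -0.70). Tox was called in Th17n ctrl alone of the 4 cultures, but its difference from the iTreg ctrl effect was not called (-1.18 ± 0.30, adjusted p = 0.27 by edgeR).

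**Figure D5:**
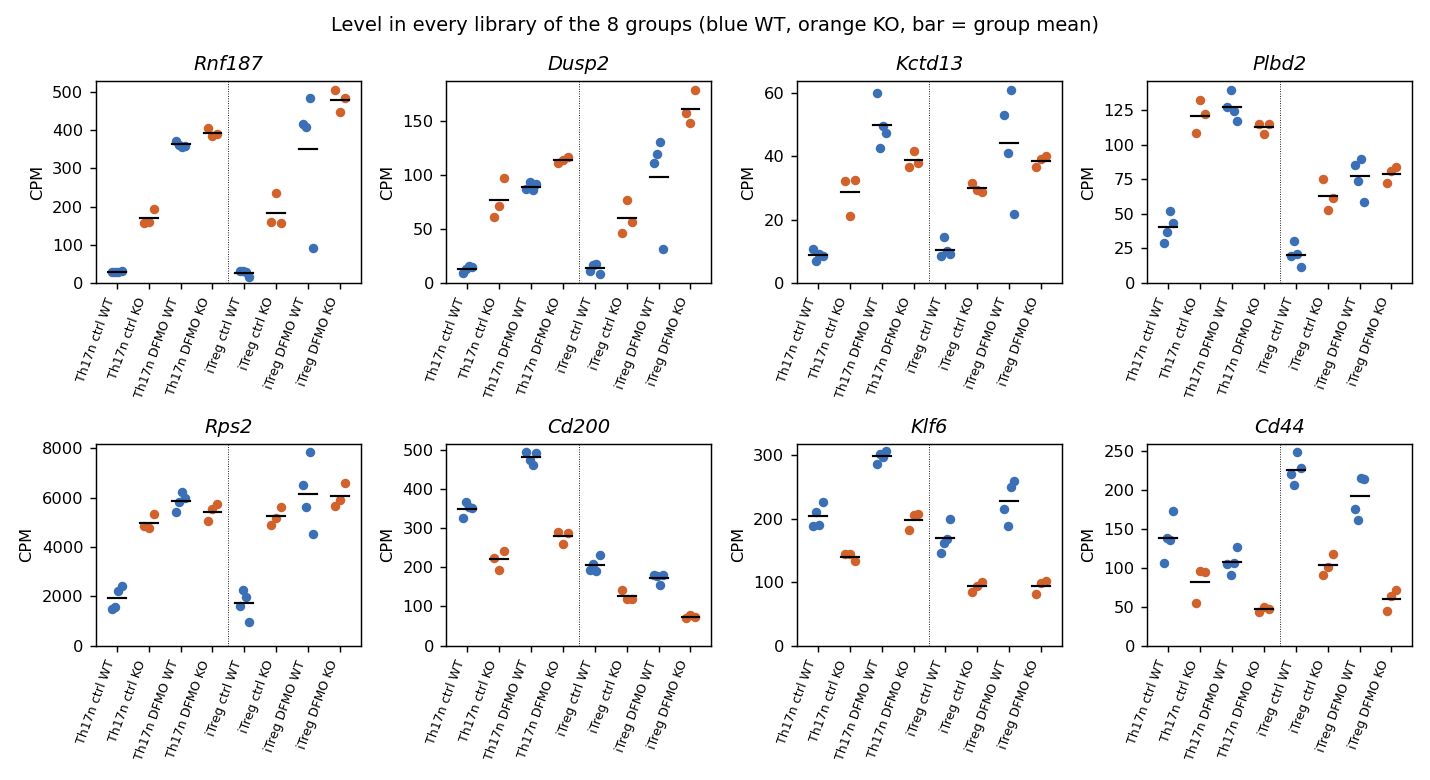
Each point is the CPM of 1 library (linear axes from 0), blue for WT and orange for KO, in the 8 groups on the x axis, with group means as bars. Rnf187, Dusp2, Kctd13, Plbd2 and Rps2 are low in the untreated WT libraries of both cell types, while Cd200, Klf6 and Cd44 are lower in KO in each of the 4 cultures.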

How the data were processed

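RNA-seq of 28 libraries was used, 7 of them for the main comparison. The authors deposited an estimated count and a TPM for each of 20891 genes, which the submitters' processing notes tie to kallisto (its version is not given in the sources used here) and GRCm38. Whole numbers (within 0.001) made up 67.2% of the deposited estimated counts, and deposited TPM summed to 863920 to 886579 per library. All gene names matched GENCODE M21, the source of positions and GC content.

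Estimated counts were rounded and fitted with edgeR 4.0.16 in R 4.3.3: 1 quasi-likelihood model of 8 group means over all 28 libraries, TMM scaling, edgeR's filter on low counts (10985 genes kept), Benjamini-Hochberg adjustment over all genes tested and a call at an adjusted p under 0.05. Group differences thus share the spread of all groups (20 residual degrees of freedom), and this main model has no term for the animal. Levels are CPM on TMM-scaled totals. Standard errors come from the quasi-likelihood F, and 95% intervals use 29.2 degrees of freedom. Strand was not used, so reads of a gene and of an overlapping or antisense partner may be mixed.

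Named genes were Kdm6b, Kdm6a, Il17a, Il17f, Il23r, Foxp3 and Il10 (another gene of that set is not reported here), up to 12 largest called changes each way (at least 10 CPM, separate groups, called in all 7 leave-one-out fits), up to 4 called members per gene list (all where 5 or fewer), up to 6 genes per difference of effects, and called genes within 10 Mb of Kdm6b. Genes without an approved symbol were only counted. The comparison, its 37 pathway and 11 cell type lists (1009 of 1028 entries matched, written from general knowledge) and the rule were chosen with earlier results of these data known. Alternatives were RLE factors, DESeq2 1.42.0, no filter, only the groups compared, limma 3.58.1 on log2(TPM + 1), a GC content offset, thinning to 2226732 counts, blocks and leaving out each library. Counts for KO against WT in Th17n ctrl were also simulated, over 10985 genes. Of 67 genes given a 1.5-fold change 35.8% were recovered, of 67 given 2-fold 76.1%, and of 66 given 4-fold 84.8%. There were 4 false calls. A list with 0 calls can therefore still hold changed genes, above all at 1.5-fold. For the differences of effects, libraries of 1 animal are paired by the labels (correlations of their deviations 0.05 to 0.24 between Th17n ctrl and Th17n DFMO and -0.02 to 0.11 between Th17n ctrl and iTreg ctrl).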

Additional observations from a re-analysis of the deposited data

Results flagged for a closer look

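For 6 genes a direct test found that the KO effect differed between untreated and DFMO-treated Th17n cells. The difference on the log2 scale was 1.77 ± 0.24 for Plbd2, 1.34 ± 0.20 for Lsm4, 2.06 ± 0.32 for Kctd13, 2.39 ± 0.40 for Rnf187 and 0.99 ± 0.17 for Adipor1, where the effect was larger without DFMO. It was -4.29 ± 0.63 for Ly6g, where it was smaller (edgeR adjusted p from 0.000607 to 0.00434). On TPM the calls of Rnf187 (2.29, limma adjusted p = 0.0707) and Adipor1 (0.97, limma adjusted p = 0.0786) were lost. In 3 cases 1 library lay apart from the rest of its group of 4, all in iTreg cells: Rnf187 at 16.0 CPM and Enpp2 at 1.05 CPM in iTreg ctrl WT replicate 4, and Cd200 at 156 CPM in iTreg DFMO WT replicate 3. Only WT groups were checked, for the 7 genes always given and the 12 higher and 7 lower genes with the largest changes. Chance alone marks about 1 in 20 groups in this way, so as many marks as these could arise by chance.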

How the results depend on the processing

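Of the 334 calls of KO against WT in untreated Th17n cells, 328 remained with RLE factors, 323 with DESeq2, 299 with the animal as a random block and 166 on TPM, and 0 reversed. The count moved by more than 1.5 times in these cases: 157 higher on TPM, 166 lower with no filter on low counts, 130 lower with the replicate number as a block, and 208 calls (159 higher, 49 lower) after thinning. Leaving out 1 library gave 126 to 337 calls, 98 to 245 higher and 21 to 92 lower. The replicate numbers are separate animals in WT and KO, so they were not taken as pairs. Deviations of same-numbered libraries correlated at 0.133, 0.0574 and 0.117. These lie within the 0.05 to 0.24 between Th17n ctrl and Th17n DFMO libraries of 1 animal, so the correlations do not decide the pairing. With the replicate number as a block 451 genes were called, and a batch shared by that number was not tested. The difference between untreated and DFMO-treated cells called 68 genes with DESeq2, 6 on TPM, 132 with no filter, 129 with only the groups compared, 57 with the animal as a replicate block, 67 with that block and the GC offset, and 19 to 35 when 1 library was left out (19 without Th17n ctrl KO replicate 3, 22 without Th17n DFMO KO replicate 1, 23 without Th17n ctrl WT replicate 1). The difference from iTreg cells called 11 with DESeq2, 27 with no filter, 8 with only the groups compared, 8 with the replicate block, 8 with the block and the GC offset, and 0 to 8 when 1 library was left out. Il17f, not called, changed sign with the replicate block (0.20) and without KO replicate 1 (0.02) or WT replicate 4 (0.14), in a range of -0.24 to 0.14 when 1 library was left out. The cause of these changes was not tested, except that thinning and omission reduce the data. KO replicates 1 and 2, with 2226914 and 2607299 counts, limit the precision for low genes.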

Other observations

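Some large changes lay below the level of 10 CPM that the rule for named genes required, and they are given here after their values were seen. Pdlim4 is a PDZ and LIM domain protein gene on chromosome 11, outside the 10 Mb window around Kdm6b. It was at 6.67 ± 1.53 CPM in WT (SD, n = 4) and 0.217 ± 0.201 CPM in KO (SD, n = 3). Its fitted log2 fold change was -4.67 ± 0.63 (edgeR adjusted p = 3.9e-05), it was called in all 7 fits that leave out 1 library, and its values in Th17n DFMO, iTreg ctrl and iTreg DFMO were -3.03, -2.44 and 0.72. Lad1, an anchoring filament protein gene, was at 4.94 ± 0.974 CPM in WT and 0.900 ± 0.949 CPM in KO (-2.56 ± 0.49), a call lost without KO replicate 3 (-1.93) and with the animal as a random block (-2.71). Arrdc4, an arrestin-domain gene of glucose sensing, was higher in KO, at 2.06 ± 0.779 CPM in WT and 10.2 ± 0.912 CPM in KO (2.28 ± 0.42). Its KO effect in Th17n DFMO was -0.85. Eng, a TGF-beta co-receptor gene above that level but not among the 12 largest changes, was at 16.3 ± 1.43 CPM in WT and 41.8 ± 15.4 CPM in KO, with values of 1.35, 0.95, 2.05 and 1.71 in Th17n ctrl, Th17n DFMO, iTreg ctrl and iTreg DFMO.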
